A study of Rattus norvegicus and Heterocephalus glaber with 6 samples.

Results

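The cytochromes P450 of families CYP2 and CYP3 were followed in livers of naked mole rats, which live underground and withstand low oxygen, and of rats, each held at 8% oxygen for 8 hours. Members were the rows of the deposited gene tables whose symbol begins with Cyp2 or Cyp3 and a further letter, which gave 46 of 23283 rows, 3 of 734 in naked mole rat and 43 of 22549 in rat. Polyadenylated RNA was sequenced in 3 libraries per species. No strain, age, sex or genotype is given, and the labels do not say that each library came from a different animal. Below, a numbered rat or naked mole rat, and the rats as a set, stand for libraries. The spread between them may be technical. Normoxia libraries were not analysed here, so the effect of oxygen was not examined, and the values below are levels after the exposure.

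CYP2 and CYP3 enzymes sit in the endoplasmic reticulum of hepatocytes and insert an oxygen atom into drugs, steroids, fatty acids and environmental chemicals, with electrons passed on by P450 reductase. They use molecular oxygen as a substrate. Many of the genes lie in arrays of duplicated copies that differ between rodent species, and many are under the control of the nuclear receptors CAR and PXR and of the hepatocyte factors HNF4A and C/EBP. In the rat several also depend on sex, through the pattern of growth hormone secretion.

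Levels are FPKM, fragment numbers divided by transcript length and by the mapped total of the library, and can be compared between genes. The FPKM total was 17543 to 21793 in the naked mole rat tables and 527133 to 557187 in the rat tables, and the depth in reads is unknown. In rat, 12 of 14 hepatocyte markers averaged at least 100 FPKM, and neither any of 8 T or NK cell markers nor any of the 5 neutrophil markers with a row averaged 10. By contrast, 9 of 12 Kupffer cell or macrophage markers and 3 of 10 sinusoidal endothelium markers averaged at least 10 FPKM, and the erythroid gene Hbb stood at 54.4, 357 and 348 FPKM in rat 1, 2 and 3. The part of these cells in the P450 values was not tested. In whole liver RNA, fewer cells of a type and less RNA per cell cannot be told apart. Rat albumin carries the status HIDATA, too many fragments to estimate, in rat 1 and rat 2 and was treated as missing there. In naked mole rat the plasma protein gene APOH was the single hepatocyte marker with a row, at 57.9, 34.7 and 51.7 FPKM, so the tissue label could hardly be checked. Near-identical copies can split reads between rows, so levels of single copies are uncertain throughout.

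The naked mole rat rows were 2 of the CYP2B subfamily, both with the symbol CYP2B6, and 1 of the CYP3A subfamily, CYP3A5. In humans, CYP2B6 is a CAR-controlled enzyme that acts on drugs such as bupropion, and CYP3A5 belongs to the subfamily that handles the largest share of common drugs. The higher CYP2B6 row, on scaffold76895 from 886 to 8701, stood at 1121, 1459 and 1634 FPKM in naked mole rat 1, 2 and 3 (mean 1405 ± 261, SD, n = 3). It held rank 4 in each library. The lower CYP2B6 row, on scaffold175240 from 10456 to 13342, stood at 352, 706 and 284 FPKM (447 ± 226, SD, n = 3). Naked mole rat 2 was high in the lower row and naked mole rat 3 in the higher row, so the ratio of the lower to the higher row was 0.314, 0.484 and 0.174. CYP3A5, on scaffold175419 from 7115 to 75462, stood at 523, 574 and 444 FPKM (514 ± 65.8, SD, n = 3) and held ranks 6, 7 and 6. These 3 rows made up 11.4%, 12.6% and 12.4% of the FPKM total of their tables, which hold few genes.

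No member symbol occurs in both species, so no member could be tested between them. The species contrast was fitted with limma over the 388 shared symbols, of which 288 passed the filter on low values. Of these, 32.6% were called higher in naked mole rat, against 41% called higher in rat, and 0 of the 388 were CYP2 or CYP3 genes. The balance turned with 2 other scalings, to 169 higher in naked mole rat against 108 higher in rat for an equal sum and to 110 against 99 for quantile normalization, where the median-ratio scaling had given 94 against 118. What could be set side by side were the subfamily sums. The CYP2B rows summed to 1473, 2165 and 1918 FPKM in naked mole rat and to 3.05, 11.5 and 4.24 FPKM in rat, with no overlap. The lower and higher CYP2B6 rows span 2886 and 7815 bases, against 23644 for rat Cyp2b1 and 13991 for rat Cyp2b2. Whether the CYP2B6 rows are whole or partial genes, and what that does to their FPKM, was not tested. The CYP3A rows summed to 523, 574 and 444 FPKM in naked mole rat and to 806, 875 and 909 FPKM in rat. These sums did not overlap either and had the opposite order. That order rests on 4 readable rat rows summed against 1 naked mole rat row. Row by row, CYP3A5 lay above every rat CYP3A value, the highest of which was 407 FPKM, for Cyp3a23/3a1 in rat 2. Differences between the species were common among the shared symbols, as 259 of the 288 tested had an unadjusted limma p under 0.05. A lack of overlap is therefore not particular to these sums, and its share over all symbols was not counted. With 3 libraries a side and members of unlike number and name, the differences between the sums were not tested. An effect of species cannot be told apart from one of the genome used, its annotation or the alignment.

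**Figure D1:**
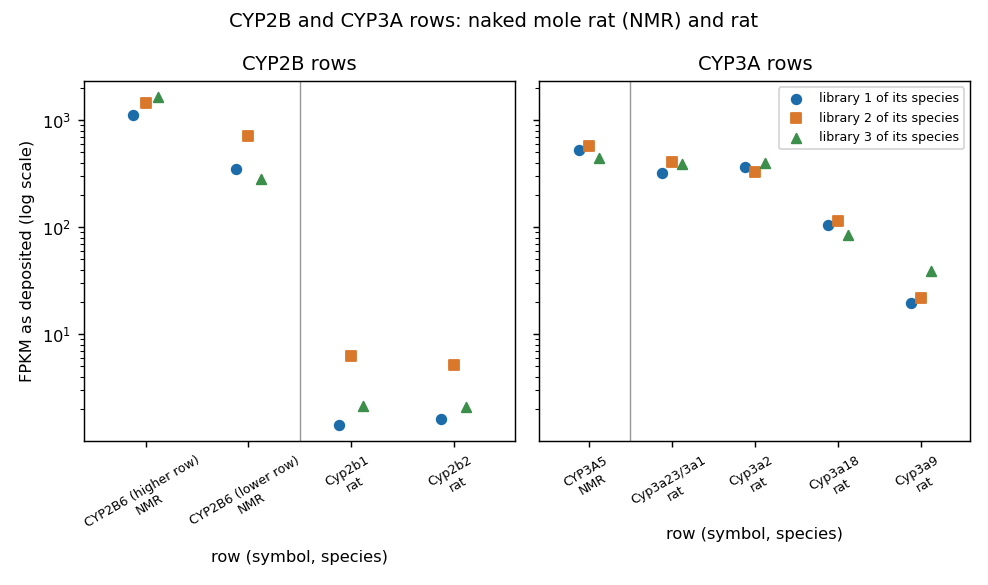
FPKM as deposited (vertical axis, log scale) of each CYP2B row (left) and CYP3A row (right) whose mean reached 1 FPKM, with naked mole rat rows left of the grey line and rat rows right of it. Each point is 1 library. The CYP2B6 rows lie between 284 and 1634, far above rat Cyp2b1 and Cyp2b2 at 1.42 to 6.27. CYP3A5 lies close to rat Cyp3a2 and Cyp3a23/3a1 and above both.

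The sums were also set against another P450 of the same library. CYP1A2, a P450 of another family with a row in both species, stood at 1795, 1995 and 2953 FPKM in naked mole rat and at 310, 388 and 400 FPKM in rat. On values scaled between libraries it averaged 2394 ± 638 in naked mole rat against 339 ± 31.6 in rat (SD, n = 3 per species), a 6.89-fold difference (adjusted p = 3.02e-05 by limma), with every naked mole rat library above every rat library. Its naked mole rat row spans 0.402 times the rat row. The CYP2B sum was 0.820, 1.09 and 0.649 times CYP1A2 in naked mole rat and 0.00983, 0.0295 and 0.0106 times in rat. The CYP3A sum was 0.291, 0.288 and 0.150 times CYP1A2 in naked mole rat and 2.60, 2.25 and 2.27 times in rat. These ratios were chosen after the values had been seen, and they are no independent check of the order of the sums, since CYP1A2 itself differed between the species.

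Of the 43 rat rows, 24 averaged at least 1 FPKM, 19 at least 10 and 13 at least 100, while 15 were listed at 0 in every library. On the assembled chromosomes, 13 of 36 members (36.1%) averaged 100 FPKM or more, against 3.05% of all 21718 rows there. The members summed to 6549, 7167 and 7331 FPKM in rat 1, 2 and 3, or 1.23%, 1.36% and 1.32% of the total. CYP2E held 47.6% ± 2.90 of this sum (SD, n = 3), CYP2D 19.2% ± 1.90, CYP2C 14.2% ± 1.56, CYP3A 12.3% ± 0.101 and CYP2A 5.54% ± 0.469. The CYP3A share was nearly the same in the 3 rats, whereas CYP2E was highest and CYP2D and CYP2C lowest in rat 3. All these shares leave out CYP2C and CYP3A genes whose rows could not be read, as given below.

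**Figure D2:**
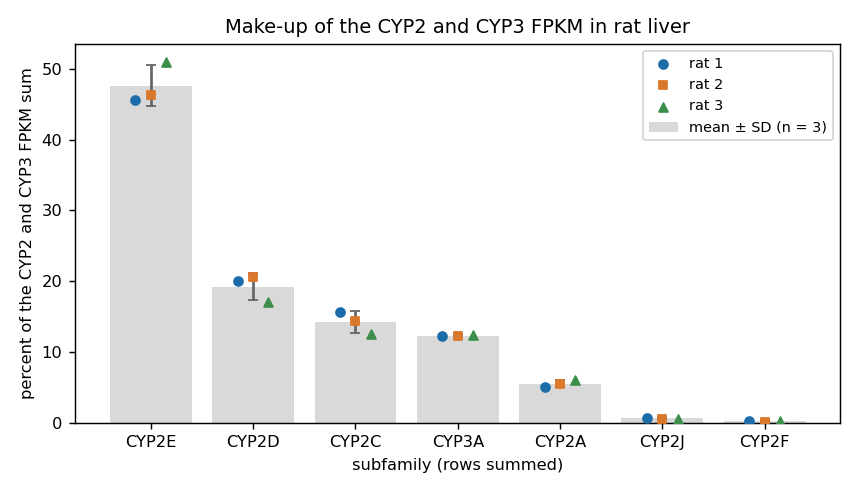
Percent of the summed CYP2 and CYP3 FPKM (vertical axis, from 0) held by each rat subfamily with a row of at least 10 FPKM. Bars are means with SD over 3 libraries and points are the libraries. CYP2E alone takes 45.6% to 50.9%.

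Cyp2e1, the ethanol- and acetone-inducible enzyme of hepatocytes around the central vein, was the highest readable member, at 2988, 3318 and 3734 FPKM (3347 ± 374, SD, n = 3). It lies on chromosome 1 from 200918520 to 200928919 in the coordinates of the tables and ranked 25, 19 and 21 among all rows. The promoters below are from RefSeq (build GRCr8) and read 5′ to 3′ on the + strand. Each runs from 250 bases before the gene's start to 50 after it. That of Cyp2e1, at chr1:205269717-205270016, is shown because this gene holds the largest share of the FPKM of the readable CYP2 and CYP3 rows. Capitals mark 3 letter patterns searched on both strands: TTGCNNAA, a form of the C/EBP palindrome; AGGTCA, the hexamer of nuclear receptors; and ATAAAA, as in a TATA box.

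Cyp2e1: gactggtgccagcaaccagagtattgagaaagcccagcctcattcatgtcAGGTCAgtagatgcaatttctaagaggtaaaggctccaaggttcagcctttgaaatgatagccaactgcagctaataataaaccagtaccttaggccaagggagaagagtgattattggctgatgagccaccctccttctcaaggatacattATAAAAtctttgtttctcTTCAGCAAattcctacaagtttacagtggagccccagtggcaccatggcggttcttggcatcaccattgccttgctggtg

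Cyp2e1 had AGGTCA from 200 bases before the start, ATAAAA from 48 before it and TTGCNNAA, on the other strand, from 30 before it. Of the 43 rat rows, 36 had a promoter in the RefSeq table. TTGCNNAA occurred in 14 of these 36 (38.9%), against 10.5% of all 27457 gene promoters of the same length, AGGTCA in 12 (33.3% against 15.7%) and ATAAAA in 15 (41.7% against 20.4%). The promoters with TTGCNNAA include those of rows listed at 0, such as Cyp2b12, Cyp2b15 and Cyp2g1. The patterns were picked with the sequences in view, several members share ancestry, and a match describes letters and not a bound site.

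In the CYP2C subfamily, whose members hydroxylate steroids and convert arachidonic acid to epoxides, 3 rows exceeded 100 FPKM. The row named Cyp2c, a synonym of Cyp2c11 in RefSeq, stood at 393, 473 and 275 FPKM (380 ± 99.6, SD, n = 3), lowest in rat 3. Cyp2c11 is the main male form of rat liver, a steroid hydroxylase. Cyp2c23, an arachidonic acid epoxygenase, stood at 369, 335 and 325 FPKM (343 ± 23.3), and the 3 rats lay close together. Cyp2c22 stood at 251, 184 and 287 FPKM (240 ± 52.4), lowest in rat 2. The pseudogene row Cyp2c77-ps stood at 14.2, 41.6 and 35.8 FPKM (30.5 ± 14.5), lowest in rat 1. Cyp2c24 and Cyp2c79 were below 0.1 FPKM in every rat. These rows lie on chromosome 1 between 243281319 and 249228689. The promoter of Cyp2c11, at chr1:246174966-246175265 (+ strand), is shown as that of the highest CYP2C row.

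Cyp2c11: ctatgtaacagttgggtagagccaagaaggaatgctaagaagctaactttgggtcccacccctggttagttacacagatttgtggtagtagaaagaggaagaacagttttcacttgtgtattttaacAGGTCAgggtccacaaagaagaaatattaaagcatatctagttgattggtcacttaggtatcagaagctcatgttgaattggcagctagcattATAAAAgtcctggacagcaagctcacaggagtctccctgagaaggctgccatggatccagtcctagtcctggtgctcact

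Here AGGTCA began 123 bases before the start and ATAAAA 30 before it, and TTGCNNAA had no match in this window. The longest run of identical bases that it shares with the Cyp2c24 promoter is 45 bases, although Cyp2c24 RNA was near 0.

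Other CYP2C genes could not be read. Cyp2c6, Cyp2c7, Cyp2c12, Cyp2c13 and Cyp2c37, with Cyp3a73 and the pseudogene Cyp3a85-ps, lie on sequence outside the assembled chromosomes, and all 7 were listed at 0. So were all 831 rows on such sequence, against 73.0% of rows on the chromosomes above 0 in at least 1 rat. Their 0 therefore says nothing about expression. Cyp2c12 is the main female form and Cyp2c13 a male form of rat liver, so the female marker of the subfamily has no usable value.

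Further forms known to differ between the sexes in rat liver had values. Cyp2a2, a male-specific testosterone hydroxylase, stood at 166, 198 and 219 FPKM (194 ± 26.7, SD, n = 3), and its neighbour Cyp2a1, a female-predominant testosterone 7-alpha-hydroxylase, at 168, 195 and 223 (195 ± 27.6). Both were lowest in rat 1 and highest in rat 3, and the ratio of Cyp2a2 to Cyp2a1 was 0.988, 1.02 and 0.981. The rows are 18946 bases apart, and whether shared reads contribute to this match was not tested. Cyp3a2, a male-predominant steroid hydroxylase, stood at 363, 331 and 394 FPKM. Of the other sex-biased liver genes listed, Sult1e1, an oestrogen sulfotransferase higher in male rats, stood at 196, 704 and 589 FPKM and Bcl6, a male-biased repressor, at 19.5, 12.9 and 15.9. The female-biased Cux2 was at 0.486, 0.170 and 0.564, A1bg at 0.0329, 0.0345 and 0.0324, and the prolactin receptor Prlr at 6.04, 6.36 and 14.2. Of the 5 sex chromosome genes listed, 3 had a row. The Ddx3y and Uty rows, at 30.6 to 31.7 and 1.91 to 2.23 FPKM, are placed on chromosome X in the deposited coordinates. The Eif2s3y row, listed at 0 in every rat, is placed on chromosome 2. None of these rows therefore says whether a Y chromosome was present.

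**Figure D3:**
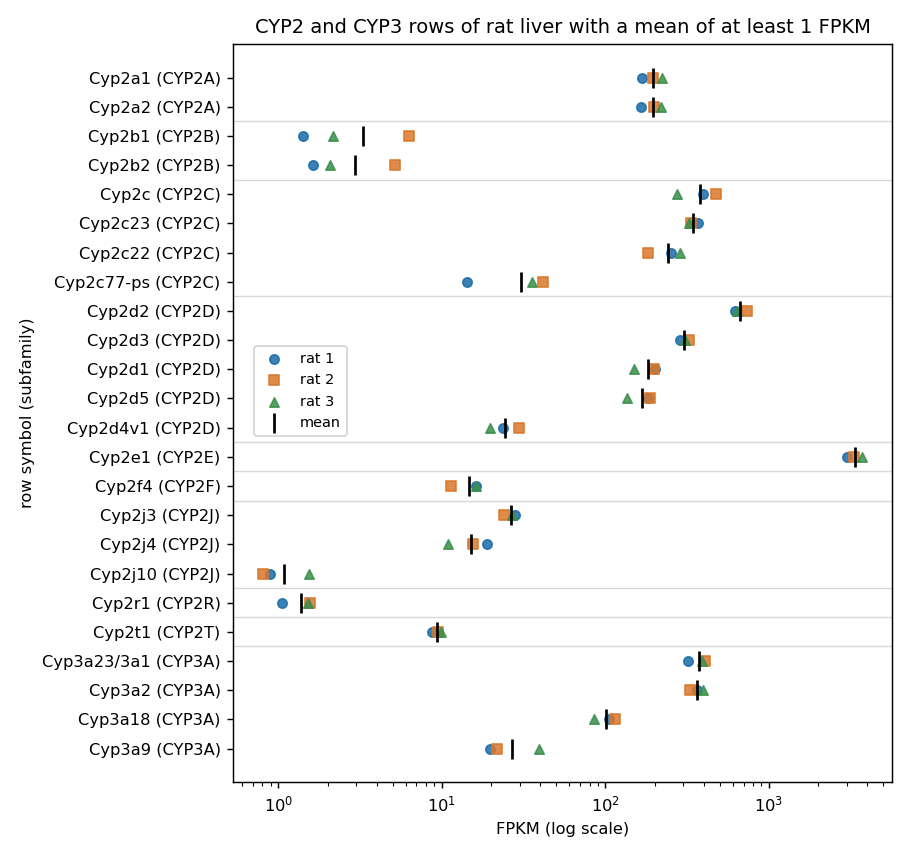
FPKM (horizontal axis, log scale) of the 24 CYP2 and CYP3 rows of rat liver whose mean reached 1 FPKM, grouped by subfamily. Symbols are the 3 libraries and black bars the means. Cyp2e1 stands alone at 2988 to 3734, the next row, Cyp2d2, has a mean of 667, and Cyp2b1 and Cyp2b2 show the widest spread between rats among these rows.

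The CYP2D subfamily, which in rat oxidises amine drugs such as debrisoquine, is a compact array of 5 rows within 58.0 kb of chromosome 7 from 120742272 to 120800279. In the order of the deposited coordinates the mean was higher from row to row. Cyp2d4v1, a form also found in rat brain, stood at 23.5, 29.5 and 19.8 FPKM (24.3 ± 4.90, SD, n = 3). Cyp2d5 stood at 181, 186 and 136 FPKM (168 ± 27.7) and Cyp2d1 at 202, 197 and 149 (183 ± 28.9). The ranges of these neighbours over the rats overlapped, while within a library Cyp2d1 was 1.11, 1.06 and 1.10 times Cyp2d5, the higher in each rat. Cyp2d3 stood at 285, 323 and 305 FPKM (304 ± 18.8) and Cyp2d2, the debrisoquine-type form at the far end, at 624, 738 and 639 (667 ± 61.5). Cyp2d3 lay above Cyp2d1 and Cyp2d5 in every rat, and Cyp2d2 was 2.19, 2.29 and 2.095 times Cyp2d3 in the same library. The Cyp2d3 and Cyp2d5 promoters share an unbroken run of 112 identical bases, the longest of 58 pairs within a subfamily, where the median was 10 bases. Between subfamilies no pair of 572 shared more than 13.

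**Figure D4:**
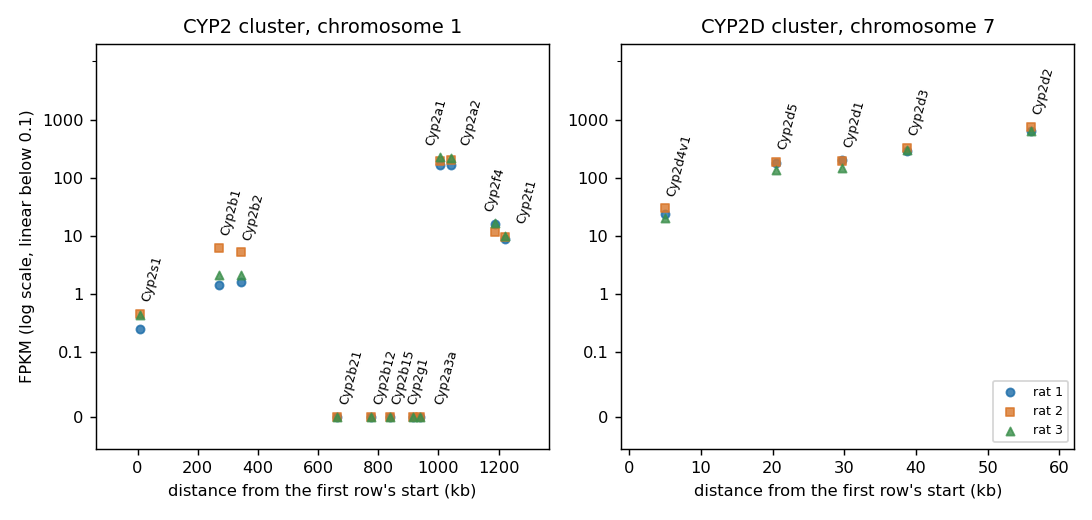
FPKM (vertical axis, log scale, linear below 0.1) against the distance of each row's midpoint from the start of the first row (kb) in the array of CYP2A, CYP2B and related genes on chromosome 1 (left) and in the CYP2D array on chromosome 7 (right), with 1 point per rat library. On the left, 5 rows listed at 0 lie between Cyp2b2 and Cyp2a1. On the right, the level is lowest in Cyp2d4v1 and highest in Cyp2d2.

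The CYP3A subfamily, steroid 6-beta-hydroxylases that act on many drugs and are induced through PXR, had 4 readable rows on chromosome 12. Cyp3a23/3a1, the dexamethasone-inducible form, stood at 318, 407 and 391 FPKM (372 ± 47.4, SD, n = 3). Cyp3a2, 26119 bases away, averaged 363 ± 31.5, and the ranges overlapped. The ratio of Cyp3a23/3a1 to Cyp3a2 was 0.876, 1.23 and 0.990, so rat 1 and rat 2 differed in which was higher. Their promoters share an unbroken run of 62 bases. Cyp3a18, a male-predominant form, stood at 105, 114 and 85.2 FPKM (101 ± 14.8) and Cyp3a9, a female-predominant form, at 19.7, 21.9 and 39.3 (27.0 ± 10.7). Cyp3a9 was highest in rat 3, where Cyp3a18 was lowest.

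Cyp2b1 and Cyp2b2, the phenobarbital-inducible forms that respond to CAR, were low and varied most between the rats among members averaging at least 1 FPKM. Cyp2b1 stood at 1.42, 6.27 and 2.15 FPKM and Cyp2b2 at 1.62, 5.18 and 2.08, both highest in rat 2. The highest library was 4.402 times the lowest for Cyp2b1 and 3.20 times for Cyp2b2. They lie on chromosome 1 from 81266827 to 81290471 and from 81345424 to 81359415, and their promoters, at chr1:90645869-90646168 and chr1:90722031-90722330 (both + strand), are shown because these rows moved together.

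Cyp2b1: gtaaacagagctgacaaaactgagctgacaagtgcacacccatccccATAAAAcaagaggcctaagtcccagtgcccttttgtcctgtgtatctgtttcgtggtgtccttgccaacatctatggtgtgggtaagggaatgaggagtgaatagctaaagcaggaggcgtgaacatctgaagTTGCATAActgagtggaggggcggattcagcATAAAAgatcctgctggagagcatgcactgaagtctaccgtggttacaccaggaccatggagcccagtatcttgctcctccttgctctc

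Cyp2b2: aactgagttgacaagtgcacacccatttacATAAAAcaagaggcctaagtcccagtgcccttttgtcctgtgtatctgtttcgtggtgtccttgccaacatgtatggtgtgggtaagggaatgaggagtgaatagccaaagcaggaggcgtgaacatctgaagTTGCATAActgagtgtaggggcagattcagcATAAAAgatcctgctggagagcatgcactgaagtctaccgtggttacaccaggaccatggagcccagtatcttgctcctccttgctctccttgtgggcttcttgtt

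These promoters agree at 97.2% of 283 aligned bases, and 97 of them form an unbroken identical run. Each holds 1 TTGCNNAA match, from 70 bases before the start in Cyp2b1 and from 87 before it in Cyp2b2, whose start is annotated at another base of the same sequence. Each has 2 ATAAAA matches and no AGGTCA. Sequence so alike may split reads, and how far the RNAs move as separate genes was not tested.

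Counting every member with a mean of at least 1 FPKM, 3 of 24 had a highest library at least 2 times the lowest, Cyp2b1, Cyp2b2 and Cyp2c77-ps, against 6.01% of the 9994 rat rows at that level. Without rat 2 the count was 1 of 24, Cyp2c77-ps, against 3.02% of all rows, as Cyp2b1 and Cyp2b2 were then under the limit. In naked mole rat 1 of 3 members had such a range, the lower CYP2B6 row, against 15.7% of 319 rows, and without naked mole rat 2 it was 0 of 3, against 9.23%. The median range over the rat members was 1.36-fold, against 1.24-fold over all rows. Rat 1 was lowest for 12 of the 24 members (50%, against 48.5% of all rows), and rat 2 was highest for 11 (45.8% against 49.0%). These shares of lowest and highest libraries were near those of all rows. The counts of members with a 2-fold range are small and were not tested.

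**Figure D5:**
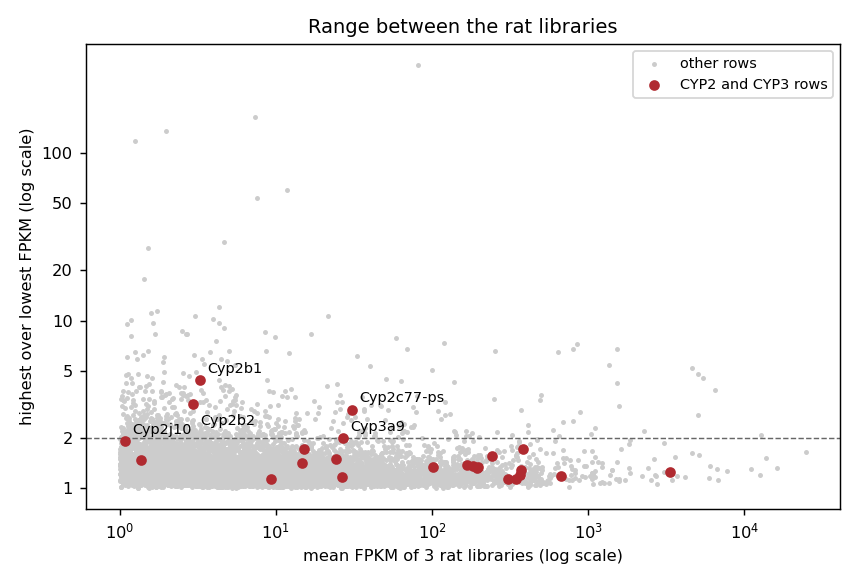
Highest over lowest FPKM of the 3 rat libraries (vertical axis, log scale) against mean FPKM (horizontal axis, log scale) for rows whose mean reached 1 FPKM and a value above 0 in each rat. Red points are the 24 CYP2 and CYP3 rows, grey points the other rows, and the dashed line marks 2-fold. Cyp2b1, Cyp2b2 and Cyp2c77-ps lie above the line and Cyp3a9 just below it.

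Rat 2 also differed in acute-phase genes. Fibrinogen alpha (Fga) stood at 6782, 1451 and 6984 FPKM in rat 1, 2 and 3, Fgb at 8594, 2257 and 8667 and Fgg at 7627, 1685 and 6929. A2m, an acute-phase protein named after its values were seen, stood at 191, 0.571 and 52.3. Rat 2 was the lowest in each, where Cyp2b1 and Cyp2b2 were highest, and the part of this in the CYP2B values was not tested. The Kupffer cell or macrophage markers with a row, 10 of 12 including Marco at 0 on unplaced sequence, summed to 327, 340 and 464 FPKM, highest in rat 3.

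The CYP2J subfamily, epoxygenases of arachidonic acid, was moderate. Cyp2j3 stood at 28.05, 24.1 and 27.0 FPKM (26.4 ± 2.06, SD, n = 3) and Cyp2j4 at 18.9, 15.5 and 11.0 (15.1 ± 3.97). Cyp2j10 was near 1 FPKM, at 0.885, 0.809 and 1.54. Cyp2f4, whose mouse relative is found in periportal hepatocytes and lung, stood at 16.1, 11.4 and 16.3 FPKM (14.6 ± 2.75). Cyp2t1 stood at 8.67, 9.49 and 9.82 FPKM, on a row that overlaps that of Egln2, an oxygen-sensing prolyl hydroxylase, so its value need not be its own. Cyp2r1, a vitamin D 25-hydroxylase, stood at 1.05, 1.55 and 1.52. Cyp2u1, a fatty acid hydroxylase, stayed between 0.561 and 0.777 FPKM and Cyp2s1, an epithelial form, between 0.244 and 0.447.

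The remaining 8 members were listed at 0 in every rat although they lie on assembled chromosomes. They are Cyp2a3a and Cyp2g1, known from the nasal mucosa of the rat, Cyp2b12 and Cyp2b15, known from sebaceous and preputial glands, and Cyp2b21, Cyp2j16, Cyp2w1 and Cyp2ac1. On the assembled chromosomes 5863 of 21718 rows were likewise at 0. In the chromosome 1 array of 12 members, 5 of these rows at 0 lay side by side among the members, between Cyp2b2 and Cyp2a1.

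Electron donors of the P450s were abundant in rat, while the regulators ranged from low to high levels. None of the electron donors or regulators listed had a row in the naked mole rat tables used here. All 5 electron donor genes averaged at least 10 FPKM and 3 at least 100. Of all rat rows on the assembled chromosomes, 18.0% averaged at least 10 FPKM and 3.05% at least 100. Por, the P450 reductase, stood at 510, 578 and 618 FPKM (569 ± 54.9, SD, n = 3), and Cyb5a, cytochrome b5, at 920, 1048 and 894 (954 ± 82.2). Pgrmc1, a haem-binding partner of P450s, averaged 247 FPKM, Cyb5r3, cytochrome b5 reductase, 82.0 and Cyb5b, the mitochondrial cytochrome b5, 20.6. Of 19 regulators, 13 averaged at least 10 FPKM, with a list median of 16.1. The lowest means were 0.41 for Cux2 and 1.10 for Ppargc1a. PXR (Nr1i2) stood at 133, 140 and 125 FPKM, Rxra at 135, 121 and 142 and Hnf4a at 136, 120 and 116, close among the rats. CAR (Nr1i3) stood at 30.5, 47.3 and 23.4, highest in rat 2 like Cyp2b1 and Cyp2b2, and Cebpa at 66.2, 96.1 and 74.8, also highest in rat 2.

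Genes of haem, the P450 cofactor, had 9 rows of 10 listed in rat, with means up to 73.5 FPKM. That highest mean was of haem oxygenase (Hmox1), which breaks haem down, at 112, 60.1 and 48.3 FPKM. The single haem gene with a row in both species was UROD, a decarboxylase of haem synthesis, at 17.0, 19.4 and 17.5 FPKM in naked mole rat and at 28.2, 37.5 and 35.3 FPKM in rat. Its log2 difference, naked mole rat minus rat, was -0.67 with an SE of 0.12 (limma adjusted p = 0.00133), short of the log2 difference of 1 asked of a call, and its sign turned with 2 other scalings. The naked mole rat row spans 678 times the rat row. Of the zonation genes in rat, all 10 periportal genes and 4 of the 8 pericentral genes with a row averaged at least 100 FPKM. The share over all rows on the assembled chromosomes was 3.05%. Oat, a pericentral gene like Cyp2e1, stood at 139, 147 and 123. Lower pericentral genes were Slc1a2, with a mean of 9.97, Tbx3 with 4.02, Axin2 with 3.48 and Lgr5 with 0.131, and Glul had no row. The zones were not compared.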

How the data were processed

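Polyadenylated liver RNA of 3 naked mole rat and 3 rat libraries was used, grouped by the sample titles. The deposited values are FPKM per gene row, and per the file headers the columns are those Cufflinks writes, with 1 library per table. Cufflinks 2.1.1, Picard 1.137, Bowtie2 2.1.0 and TopHat2 2.0.9 were used, per the submitters' processing notes. The genome build is not given in the sources used here, nor is the annotation. Row coordinates are as deposited. Strand use is not stated. FPKM carry no counts, so the depth is not known and intervals for counting error were not computed.

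Rows with the status HIDATA were treated as missing, and no member had a status other than OK. Rat symbols were matched to RefSeq by symbol (34) or synonym (5), and 4 were not matched. Within a species, levels, shares and ranges are descriptions without a test. By the rule for named genes, members averaging 10 FPKM or more are given in every library and the others by range and count, and members below 10 FPKM given in more detail were picked after their values were seen. Between species, symbols were matched without regard to case, same-symbol rows were summed, and each library was scaled by its median ratio, taken over symbols above 0 everywhere. Symbols reaching a scaled FPKM of 1 in 3 or more libraries were tested together with limma 3.58.1 (R version 4.3.3), using log2(scaled FPKM + 1), naked mole rat minus rat, with Benjamini-Hochberg adjustment and a trend of the variance on intensity. Fold changes on this scale understate low genes. A call needed a log2 difference of at least 1 and an adjusted p under 0.05. Since the labels name no separate animals, p-values reflect only how these libraries vary, which may be technical. The fit was tested on simulated data. Promoters were aligned globally with Biopython 1.88, using the first start listed for each gene. A further pattern searched in the promoters is not reported here. The members, gene lists and tests were chosen with earlier results of these data known.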

Additional observations from a re-analysis of the deposited data

How the results depend on the processing

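The species fit called 94 symbols as higher in naked mole rat, against 118 as higher in rat. Scaling each library to an equal sum over the shared symbols gave 169 higher in naked mole rat and 108 in rat, with 358 symbols tested, and quantile normalization gave 110 and 99, so that both turned the balance. Symbols of comparable span alone gave 11 and 18 of 48, by construction a smaller set. The log2 difference of UROD turned to 0.30 with the equal sum and to 0.066 with quantile normalization, and the cause was not tested. CYP1A2 stayed called higher in naked mole rat under the 14 alternatives that could be run for it, with log2 differences of 2.58 to 3.78. Leaving out a library gave 93 to 95 and 117 to 120 calls. With a replicate block the counts were 94 and 118. Same-numbered libraries did not deviate together (correlations of -0.036, -0.086 and -0.043, and 0 of 6 libraries correlated best with their own number). No pairing by number was seen. With 3 libraries per species, these values cannot decide whether same-numbered libraries were handled together.

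The CYP2 and CYP3 share of the FPKM total averaged 12.1% in naked mole rat and 1.30% in rat. These totals were taken over 734 and 22549 rows, so the shares cannot be compared between the species. Without the 10 highest rows the share was 0% in naked mole rat, whose 3 members are among those rows, and 1.68% in rat. Leaving out a library gave shares of 11.9% to 12.5% for naked mole rat and of 1.27% to 1.34% for rat. The count of members with a 2-fold range was 1 of 19 in rat for means of at least 10 FPKM, against 3.92% of all rows. Leaving out a library gave 0 to 1 for naked mole rat, against 5.50% to 10.4% of all rows, and 1 to 3 for rat, against 3.02% to 3.39%. Unknown depth, unplaced sequence and split reads limit the low and duplicated genes.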
